A study of Mus musculus with 12 samples.

Results

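The immediate-early genes *Fos*, *Fosb*, *Fosl2*, *Jun*, *Junb*, *Atf3*, *Egr1*, *Egr2*, *Nr4a1*, and *Ier2* were followed in the colon and urinary bladder of control (Ctrl) mice and of mice that lost YAP and TAZ in smooth muscle (Y/T KO). The set was fixed by gene name, and its 10 genes were all found among the 54532 genes listed for each library. *Egr2* was listed at 0 in every library, so that 9 of the 10 could be tested. Polyadenylated RNA was sequenced from 12 libraries of whole-tissue homogenate, with 3 libraries for each genotype in each tissue, 1 mouse per library. Ctrl colon came from mice 788, 786, and 787, Y/T KO colon from mice 759, 783, and 780, Ctrl bladder from mice 784, 785, and 788, and Y/T KO bladder from mice 782, 783, and 780. Mice 788, 783, and 780 therefore gave both tissues. All were males aged 5 to 7 weeks that carried floxed *Yap1* and *Wwtr1* alleles, and all received 1 mg tamoxifen per day in 5 injections, with the tissue taken at day 7 after the start of the injections. Y/T KO mice carried Myh11CreERT2, a tamoxifen-dependent recombinase driven by the smooth muscle myosin heavy chain promoter, and Ctrl mice lacked it. Any response to tamoxifen itself would therefore be shared by both groups. Any response to the recombinase itself would occur in Y/T KO alone and cannot be told apart from the loss of YAP and TAZ.

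Immediate-early genes are transcribed within minutes of a stimulus, such as a growth factor, stretch, injury, or neural activity, from factors already present in the cell, and their transcripts are short-lived. Serum response factor (SRF) with its ternary complex partners, and cAMP response element binding protein (CREB), are the best known of these factors. Fos, Jun, and ATF family proteins pair through leucine zippers to form activator protein complexes, EGR proteins bind GC-rich DNA through zinc fingers, and the NR4A proteins are orphan nuclear receptors. In tissue taken from an animal, their transcript levels also respond to handling and dissection.

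None of the 9 genes tested passed an adjusted p of 0.05 between the genotypes in either tissue. In the colon, the estimate was higher in Y/T KO for 9 of 9 genes. The 3 Y/T KO libraries were above the 3 Ctrl libraries for *Fos*, *Jun*, *Junb*, and *Ier2*, beside 8.24% of all genes. In the bladder, the estimate was lower in Y/T KO for 7 of 9 genes. The 3 Y/T KO libraries lay below the 3 Ctrl libraries for *Junb* and *Ier2*, beside 11.4% of all genes. In the bladder, the levels of all tested members but *Jun* were spread more widely among the Ctrl than the Y/T KO mice, with *Fos* 17.2-fold and *Nr4a1* 19.7-fold higher in mouse 785 than in mouse 784. Between the tissues, *Junb* was higher in the bladder than in the colon in Ctrl and lower in Y/T KO.

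Immediate-early genes are known for promoters that answer to signals directly. The 250 bases upstream of the start of a RefSeq transcript are printed for 5 members that were measured here and whose windows hold the core of the cAMP response element, TGACG or its complement CGTCA. The sequences are those of RefSeq on GRCm38.p6, in the direction of transcription, and the capitals mark every match to the core, searched on both strands. They lie at chr12:85473640-85473889 (*Fos*, plus strand), chr7:19310046-19310295 (*Fosb*, minus strand), chr8:84978749-84978998 (*Junb*, minus strand), chr1:191183334-191183583 (*Atf3*, minus strand), and chr15:101266596-101266845 (*Nr4a1*, plus strand). For *Atf3* and *Nr4a1*, this start is internal to the gene: longer annotated transcripts begin further upstream, so that both windows lie within the spans given for these genes in the deposited files.
Fos: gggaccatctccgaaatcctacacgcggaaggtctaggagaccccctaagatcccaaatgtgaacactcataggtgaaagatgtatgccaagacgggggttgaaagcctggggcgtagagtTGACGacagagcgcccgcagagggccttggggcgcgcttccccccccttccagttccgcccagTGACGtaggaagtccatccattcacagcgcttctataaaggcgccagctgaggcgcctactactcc
Fosb: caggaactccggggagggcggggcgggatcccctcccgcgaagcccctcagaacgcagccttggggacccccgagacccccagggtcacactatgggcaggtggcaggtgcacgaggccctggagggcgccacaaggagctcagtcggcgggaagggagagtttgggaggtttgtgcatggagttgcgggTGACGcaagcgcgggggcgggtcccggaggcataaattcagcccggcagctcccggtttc
Junb: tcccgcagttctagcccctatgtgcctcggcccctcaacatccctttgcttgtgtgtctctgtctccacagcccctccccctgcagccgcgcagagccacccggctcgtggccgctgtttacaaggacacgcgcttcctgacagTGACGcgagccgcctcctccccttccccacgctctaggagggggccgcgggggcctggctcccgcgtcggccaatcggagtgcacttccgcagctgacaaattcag
Atf3: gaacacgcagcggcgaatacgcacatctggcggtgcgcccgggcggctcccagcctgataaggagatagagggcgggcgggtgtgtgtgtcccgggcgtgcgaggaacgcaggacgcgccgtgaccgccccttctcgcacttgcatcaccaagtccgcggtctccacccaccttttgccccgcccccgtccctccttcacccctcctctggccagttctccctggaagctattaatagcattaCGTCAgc
Nr4a1: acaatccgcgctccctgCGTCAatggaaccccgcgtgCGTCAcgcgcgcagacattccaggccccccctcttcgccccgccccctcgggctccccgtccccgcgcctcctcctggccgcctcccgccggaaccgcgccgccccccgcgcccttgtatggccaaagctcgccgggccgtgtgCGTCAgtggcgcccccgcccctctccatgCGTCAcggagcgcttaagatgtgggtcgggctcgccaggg

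The core stood 66 and 129 bases before the start in *Fos*, 60 in *Fosb*, 106 in *Junb*, 7 in *Atf3*, and 40, 69, 213, and 233 in *Nr4a1*. It was also found for *Egr2*, so that 6 of the 8 members with a promoter in the table held it, against 23.0% of 27025 genes. The motif TATAAA, read on the gene's strand, was found in *Fos* and *Junb* and in 9.77% of genes. Genes were counted over all their windows (32851 for the 27025 genes), and the window printed for *Junb* does not hold this motif. A CArG box, the site read by SRF, was found in *Egr2* alone of these 8 members and in 1.81% of genes. Bases beyond these windows were not searched, so a CArG box further upstream would be missed. These matches describe the letters in the windows searched and not whether a factor was bound. *Egr1* and *Ier2* were named without a promoter.

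In the coordinates of the deposited files (GRCm38), *Fos* spanned chr12:85473890-85477273, *Fosb* chr7:19302696-19310051, *Fosl2* chr5:32135801-32157842, *Jun* chr4:95049034-95052222, *Junb* chr8:84974484-84978718, *Egr1* chr18:34859823-34864984, *Egr2* chr10:67535475-67542188, *Ier2* chr8:84661331-84662852, *Atf3* chr1:191170296-191218039, and *Nr4a1* chr15:101254269-101274795. All 10 spans matched the GENCODE M21 annotation and include exons, introns, and untranslated regions of the gene. On the opposite strand, *Jun* overlaps *Junos*, *Junb* overlaps *Prdx2*, and *Atf3* overlaps *Gm24748*. The libraries were prepared to keep the strand, but whether strand was used in assigning reads was not given in the sources used here.

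Aligned bases ran from 2.80 to 3.94 gigabases per library. *Yap1* was at 45.8 to 54.9 TPM in the Ctrl colons and 41.3 to 47.0 TPM in the Y/T KO colons, which overlapped (adjusted p = 0.697), and *Wwtr1* was at 16.8 to 21.5 TPM and 17.9 to 22.7 TPM. In the bladder, *Yap1* was at 98.6 to 110 TPM in the Ctrl group and 69.4 to 72.1 TPM in the Y/T KO group, without overlap (adjusted p = 0.0625), whereas *Wwtr1* was at 32.5 to 61.6 TPM in the Ctrl group and 48.3 to 60.8 TPM in the Y/T KO group. TPM is a transcript's share of its library, scaled to transcript length and to a constant sum per library, and in homogenates fewer cells of a type and less RNA per cell cannot be told apart. The summed level of 8 colon epithelium markers was 8664 to 11008 TPM in the colon libraries and 207 to 265 TPM in the bladder libraries. *Muc2*, among these markers, was at 0 in the bladder libraries. It did not pass the filter on low values in the colon either, so it does not tell the tissues apart. The summed level of 8 urothelium markers was 5109 to 6896 TPM in bladder and 19.5 to 34.2 TPM in colon. By these sums, the tissue labels fit their markers. The 12 smooth muscle genes summed to 10212 to 11347 TPM in the Ctrl colons and 6896 to 8065 TPM in the Y/T KO colons, and to 44412 to 58658 TPM in the Ctrl bladders and 23902 to 41857 TPM in the Y/T KO bladders.

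*Fos*, the founding partner of Jun proteins, was at 50.7, 50.5, and 104 TPM in the Ctrl colons (in the order of mice 788, 786, and 787) and 131, 244, and 106 TPM in the Y/T KO colons (mice 759, 783, and 780). The groups did not overlap, but the highest Ctrl library and the lowest Y/T KO library were nearly level. After rescaling, the means were 68.6 ± 34.5 TPM and 162 ± 72.3 TPM (SD, n = 3), a log2 fold change of 1.26 with a 95% confidence interval of 0.29 to 2.22 (adjusted p = 0.446). In the bladder, *Fos* was at 12.4, 212, and 84.0 TPM in the Ctrl group (mice 784, 785, and 788), as against 17.2, 30.6, and 47.4 TPM in the Y/T KO group (mice 782, 783, and 780). Ctrl mice held both the lowest and the highest value, and the log2 fold change of -1.05 had an interval of -3.66 to 1.57 (adjusted p = 0.685).

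*Fosb*, a close relative of *Fos* known for its lasting induction in neurons, was at 4.18, 1.00, and 2.48 TPM in the Ctrl colons and at 4.90, 12.9, and 1.91 TPM in the Y/T KO colons. It was at 1.55, 19.7, and 4.50 TPM in the Ctrl bladders and at 2.20, 1.91, and 6.25 TPM in the Y/T KO bladders. The groups overlapped in both tissues, and the highest *Fosb* library was also the highest *Fos* library of each tissue. The log2 fold change was 1.17 with an interval of -0.67 to 3.02 in the colon (adjusted p = 0.657) and -0.78 with an interval of -3.05 to 1.48 in the bladder (adjusted p = 0.732).

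*Fosl2*, which encodes Fra-2, was the steadiest of the genes, at 70.7, 81.6, and 52.6 TPM in the Ctrl colons, 70.5, 72.1, and 57.9 TPM in the Y/T KO colons, 56.1, 101, and 90.3 TPM in the Ctrl bladders, and 72.7, 73.6, and 82.7 TPM in the Y/T KO bladders. All groups overlapped. The genotype difference was 0.02 on the log2 scale in the colon, with an interval of -0.36 to 0.41, and -0.07 in the bladder, with an interval of -0.57 to 0.43.

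**Figure D1:**
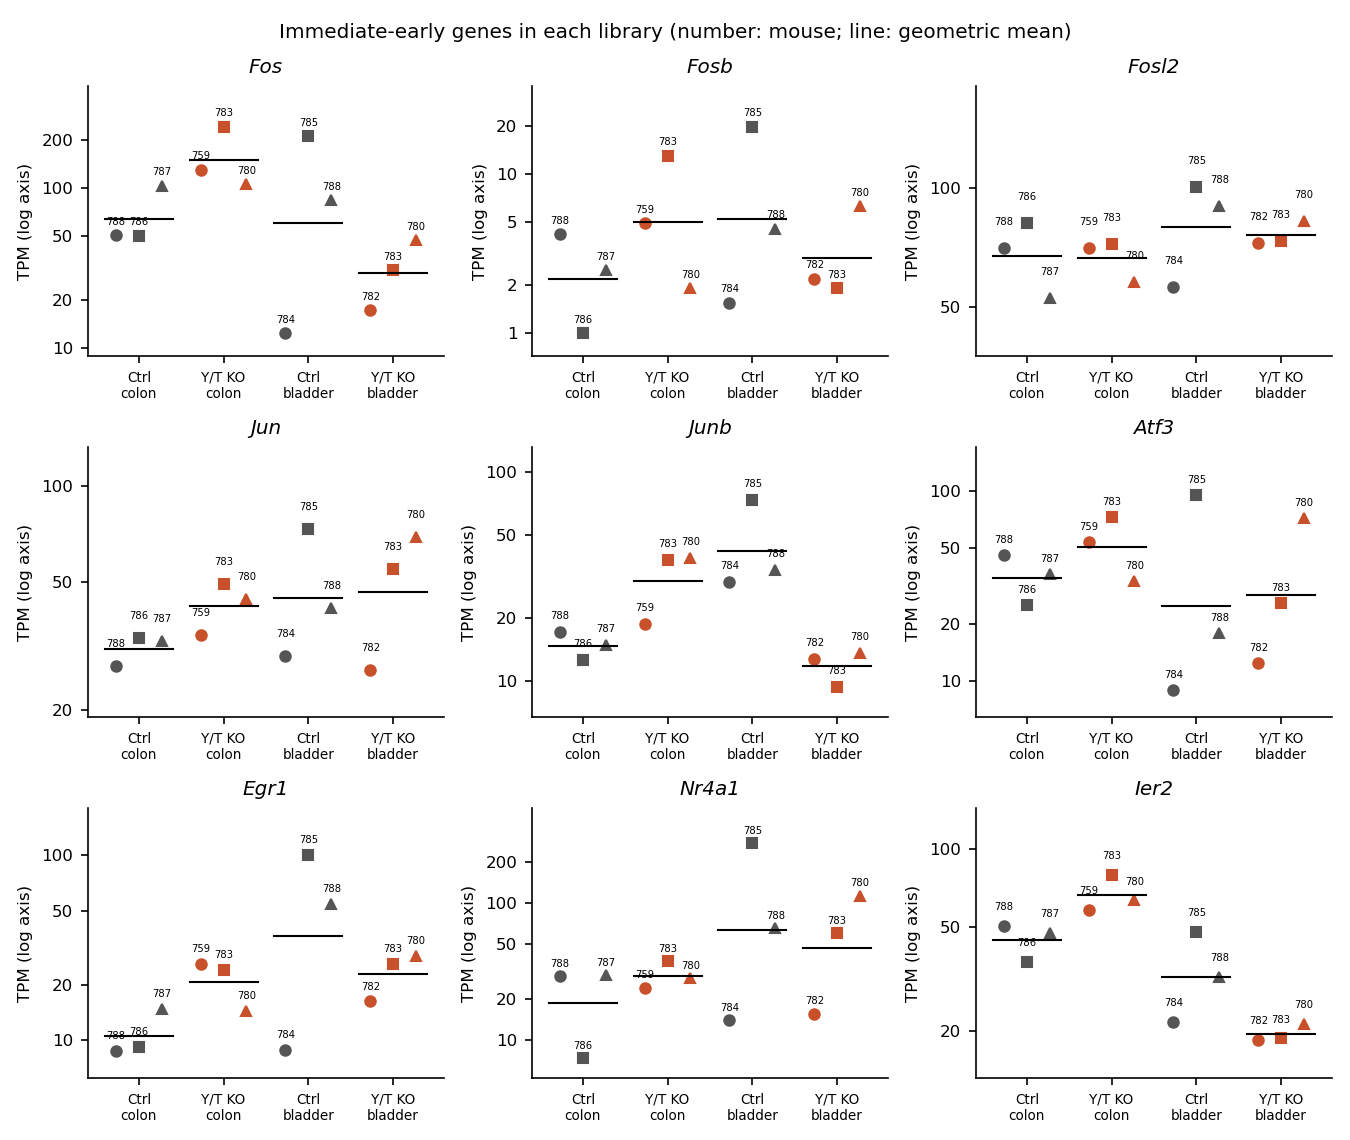
Deposited TPM (log axis) of 9 immediate-early genes in each of the 12 libraries, grouped by genotype and tissue, with mouse numbers beside the points and a line at each group's geometric mean. Ctrl bladder mouse 785 is the highest bladder library in all 9 panels. *Junb* and *Ier2* are higher in Y/T KO colon and lower in Y/T KO bladder without overlap, beside 0.712% of genes tested in both tissues.

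*Jun*, the principal zipper partner of the Fos proteins, was at 27.5, 33.4, and 32.7 TPM in the Ctrl colons and at 34.3, 49.5, and 44.5 TPM in the Y/T KO colons. All Y/T KO colons were above all Ctrl colons, by a log2 fold change of 0.48 with an interval of 0.07 to 0.89 (adjusted p = 0.479). In the bladder, *Jun* was at 29.4, 73.4, and 41.6 TPM in the Ctrl group and at 26.6, 54.9, and 69.3 TPM in the Y/T KO group. These ranges almost coincided, and the log2 fold change was 0.06 with an interval of -1.08 to 1.20 (adjusted p = 0.967).

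*Junb*, a Jun protein that can act against *Jun* at shared sites, was at 17.2, 12.6, and 14.9 TPM in the Ctrl colons and at 18.7, 37.9, and 38.8 TPM in the Y/T KO colons. It was at 29.6, 72.8, and 34.0 TPM in the Ctrl bladders and at 12.8, 9.41, and 13.7 TPM in the Y/T KO bladders. The genotypes were separate in both tissues, in opposite directions. Rescaled means were 14.8 ± 3.08 TPM in the Ctrl colons and 32.3 ± 11.6 TPM in the Y/T KO colons (SD, n = 3), and 45.5 ± 24.0 TPM in the Ctrl bladders and 11.9 ± 1.94 TPM in the Y/T KO bladders. The estimate was 2.09-fold higher in Y/T KO colon (1.06 on the log2 scale, interval 0.34 to 1.78, adjusted p = 0.392) and 3.52-fold lower in Y/T KO bladder (log2 fold change -1.82, interval -2.65 to -0.99, adjusted p = 0.118). In order of their ranges of deposited TPM, Y/T KO bladder (9.41 to 13.7) and Ctrl colon (12.6 to 17.2) overlapped. Y/T KO colon (18.7 to 38.8) and Ctrl bladder (29.6 to 72.8) overlapped as well. The step between these pairs, from 17.2 to 18.7 TPM, was small and lay within the colon. Deposited TPM are not rescaled between tissues.

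*Atf3*, a stress-induced member of the ATF/CREB family, was at 46.3, 25.2, and 36.8 TPM in the Ctrl colons and at 54.4, 73.2, and 33.6 TPM in the Y/T KO colons. In the bladder, it was at 8.99, 95.4, and 17.9 TPM in the Ctrl group and at 12.4, 25.6, and 72.7 TPM in the Y/T KO group. Each bladder group held low and high mice, and the genotypes overlapped in both tissues. The log2 fold change was 0.58 in the colon (interval -0.22 to 1.38, adjusted p = 0.620) and 0.20 in the bladder (interval -2.38 to 2.77, adjusted p = 0.947).

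*Egr1*, a zinc finger factor induced through SRF, was at 8.74, 9.20, and 14.8 TPM in the Ctrl colons and at 25.8, 24.0, and 14.4 TPM in the Y/T KO colons. Y/T KO mouse 780 lay just below Ctrl mouse 787, and the other Y/T KO colons were above all Ctrl colons. The log2 fold change was 1.00, with an interval of 0.30 to 1.70 (adjusted p = 0.406). In the bladder, *Egr1* was at 8.88, 99.96, and 54.8 TPM in the Ctrl group and at 16.2, 25.9, and 28.5 TPM in the Y/T KO group. The Ctrl range enclosed the Y/T KO range, and the log2 fold change of -0.67 had an interval of -2.84 to 1.49 (adjusted p = 0.757).

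*Egr2*, the relative of *Egr1* known for its part in myelination, was listed at 0 in all 12 libraries. It lies in a stretch at chr10:67235861-67666745 in which 13 consecutive genes were at 0 in every library, among them the protein-coding *Nrbf2* and *Ado*, which are used by most cell types. The value is therefore given only as listed. Over all genes, 23643, or 43.4%, were at 0 throughout.

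*Nr4a1*, an orphan nuclear receptor also called Nur77, was at 29.4, 7.32, and 29.6 TPM in the Ctrl colons and at 24.1, 37.4, and 28.2 TPM in the Y/T KO colons. In the bladder, it was at 14.0, 275, and 65.2 TPM in the Ctrl group and at 15.5, 60.0, and 113 TPM in the Y/T KO group. Ctrl colon mouse 786 and Ctrl bladder mouse 785 stood apart from their groups, low in the former and high in the latter. The log2 fold change was 0.70 in the colon (interval -0.71 to 2.11, adjusted p = 0.714) and -0.42 in the bladder (interval -3.51 to 2.67, adjusted p = 0.901), the widest interval of the set.

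*Ier2*, a small nuclear protein whose transcript is induced along with *Fos*, was at 50.3, 36.7, and 47.5 TPM in the Ctrl colons and at 58.3, 79.5, and 63.2 TPM in the Y/T KO colons. It was at 21.6, 47.7, and 32.1 TPM in the Ctrl bladders and at 18.4, 18.7, and 21.3 TPM in the Y/T KO bladders. As with *Junb*, Y/T KO lay above Ctrl in the colon and below it in the bladder without overlap, although Ctrl mouse 784 and Y/T KO mouse 780 were nearly level in the bladder. The estimate was 1.53-fold higher in Y/T KO colon (log2 interval 0.14 to 1.09, adjusted p = 0.446) and 1.65-fold lower in Y/T KO bladder (log2 interval -1.37 to -0.08, adjusted p = 0.297).

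Over the colon libraries, 0 of 9 immediate-early genes passed the adjusted threshold in limma, against 0.137% of the 17500 genes tested. At an unadjusted p under 0.05, *Fos*, *Jun*, *Junb*, *Egr1*, and *Ier2* were higher in Y/T KO and no member was lower, which is 5 of 9, beside 5.14% of all genes called higher by the same rule. The genotypes did not overlap, with Y/T KO higher, for 4 of 9 members and for 8.24% of all genes. Such a separation of 3 from 3 libraries has a two-sided exact permutation p of 0.1, the smallest the design allows. The median log2 fold change was 0.70 for the members and 0.01 for all genes. The members move together across libraries, so these counts are not 9 separate observations. With each colon library left out in turn, 8 or 9 of the 9 estimates stayed above 0 and 3 to 6 members had an unadjusted p under 0.05. The median log2 fold change then lay between 0.47, without Ctrl mouse 786, and 1.07, without Ctrl mouse 787.

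In the bladder, 0 of 9 members passed the adjusted threshold in limma, beside 0.302% of 18237 genes. *Junb* and *Ier2* were lower in Y/T KO at an unadjusted p under 0.05, which is 2 of 9 beside 8.2% of genes called lower by that rule. With a library left out, this count was 4 without Ctrl mouse 784 and 1 without any other, *Junb* alone, with *Ier2* at a log2 fold change between -0.99 and -0.43. The same pair made up the 2 of 9 that lay below Ctrl without overlap, beside 11.4% of genes. The median log2 fold change was -0.67 for the members and 0.00 for all genes, but this rested on Ctrl mouse 785: without it, 6 of 9 estimates were higher in Y/T KO and the median was 0.10. Without mouse 785, *Junb* was still lower in Y/T KO, by 1.42 on the log2 scale (adjusted p = 0.125), whereas *Fosb*, *Fosl2*, *Egr1*, and *Nr4a1* turned to 0.17, 0.10, 0.05, and 0.65. Without Ctrl mouse 784, 9 of 9 estimates were lower in Y/T KO and the median fell to -1.48.

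**Figure D2:**
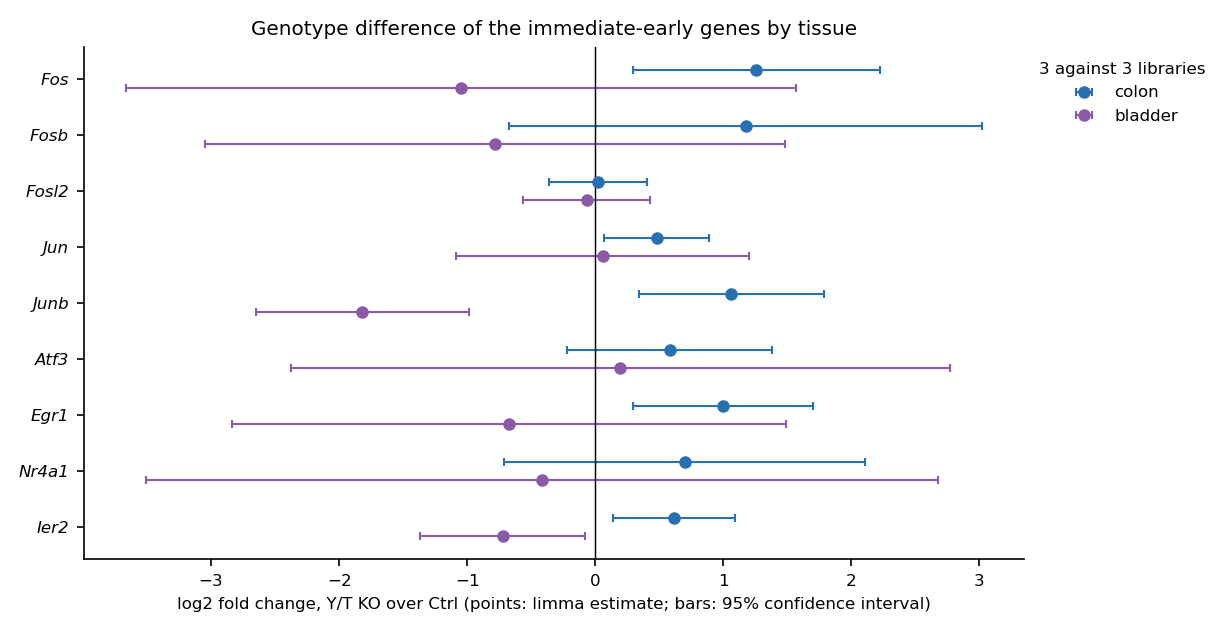
Log2 fold change of Y/T KO over Ctrl for 9 immediate-early genes in the colon and the bladder, with points at the limma estimate from 3 against 3 libraries and bars for the 95% confidence interval. In the colon, the estimates lie between 0.02 and 1.26, and in the bladder the interval excludes 0 for *Junb* and *Ier2* alone.

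Whether the genotype difference itself differed between the tissues was tested with the interaction term over all 12 libraries. No member passed the adjusted threshold in limma, beside 0.0491% of the 16298 genes tested. The difference of the bladder effect minus the colon effect was -2.88 on the log2 scale for *Junb* (SE 0.51, unadjusted p = 0.000142, adjusted p = 0.103), which ranked it 21 of the 16298 genes by p. For *Ier2*, it was -1.34 (SE 0.36, unadjusted p = 0.00317, adjusted p = 0.221). These were 2 of 9 members with an unadjusted p under 0.05 on the side of a lower bladder effect, beside 7.49% of all genes. *Junb* passed the threshold when Y/T KO colon mouse 759 was left out (adjusted p = 0.0238), and it stayed between 0.110 and 0.218 when any other library was left out. A gene that was higher in Y/T KO colon and lower in Y/T KO bladder without overlap in either tissue was uncommon, with 116 such genes or 0.712% of those tested in both, *Junb* and *Ier2* among them. For *Fos*, the difference was -2.31 with an interval of -5.16 to 0.54 (adjusted p = 0.48), and for *Fosl2*, *Jun*, and *Atf3* it lay between -0.42 and -0.09.

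In the bladder, the spread among mice of 1 genotype was larger for these genes than for most. In the fit within that tissue, the residual SD on the log2 scale had a median of 1.30 over the members and 0.24 over all genes. *Nr4a1* had a larger residual SD than 97.8% of genes, *Fos* than 96.6%, and *Atf3* than 96.5%, whereas *Fosl2* exceeded 61.6%. In the colon, the medians were 0.48 and 0.29, and the members were less alike, with *Fosb* above 96.3% of genes, *Ier2* above 50.5%, *Jun* above 33.3%, and *Fosl2* above 29.0%.

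A library high for 1 member was mostly high for the others. Ctrl bladder mouse 785 was the highest of the 6 bladder libraries for 9 of 9 members, on average 1.59 above the bladder mean on the log2 scale, with a range of 0.37 for *Fosl2* to 2.34 for *Fos* and *Nr4a1*. Ctrl bladder mouse 784 was the lowest for 6 of 9, at 0.98 below the mean (-0.98), and *Jun*, *Junb*, and *Ier2* were the exceptions. Y/T KO bladder mouse 782 had a similar mean deviation of -0.94, so that both genotypes had a low bladder. In the colon, Y/T KO mouse 783 was the highest library for 6 members (mean deviation 0.82), and Ctrl mouse 786 was the lowest for 6 (mean deviation -0.89). The other 4 colons had mean deviations between -0.16 and 0.24, with the 2 Ctrl libraries at -0.16 and -0.10 and the 2 Y/T KO libraries at 0.24 and 0.09.

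**Figure D3:**
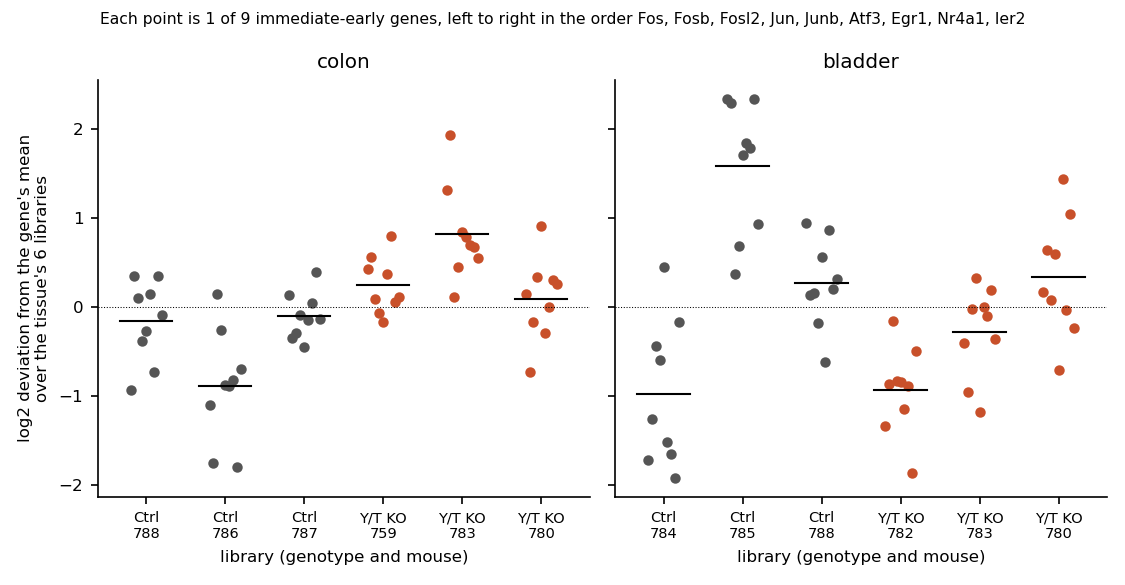
Log2 deviation of each immediate-early gene from its mean over the 6 libraries of a tissue, by library, with a line at the mean of the 9 genes. Ctrl bladder mouse 785 has a mean of 1.59 and all 9 genes above 0, and Ctrl bladder mouse 784 and Y/T KO bladder mouse 782 have means of -0.98 and -0.94.

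Cell type markers and other gene groups moved with some of these libraries. In Ctrl bladder, mouse 785 also had the highest summed level of 6 neutrophil markers (201 TPM, against 60.5 in mouse 784 and 151 in mouse 788). The same held for 7 macrophage markers (1245, against 894 and 1191) and 12 smooth muscle genes (58658, against 44412 and 55183). In Y/T KO bladder, by contrast, these sums were highest in mouse 782, which had the lowest mean of the members. Its sums were 104 TPM for neutrophil markers, 1088 TPM for macrophage markers, and 41857 TPM for smooth muscle genes. In mice 783 and 780, they were 32.1 and 66.9 TPM, 760 and 1004 TPM, and 28161 and 23902 TPM. The summed level of 5 adipocyte markers was 3731, 2385, and 1853 TPM in Ctrl bladder mice 784, 785, and 788, and 3118, 4844, and 3454 TPM in the Y/T KO bladders. In the colon, the neutrophil sum was 135 to 195 TPM in the Ctrl group. In the Y/T KO group, it was 226 TPM in mouse 759, 115 TPM in mouse 783, and 346 TPM in mouse 780. The colon with the highest members, mouse 783, thus had the lowest sum of these markers. In that library, *S100a8* and *S100a9* were at 0 and *Retnlg* was at 2.37 TPM, so most of the sum came from *Ly6g*, *Cxcr2*, and *Mpo*. In Y/T KO, *Ly6g* was called lower in the bladder than in the colon by limma, whereas the other 5 markers were higher. Heat shock genes, which respond to cellular stress, summed to 1344 to 1405 TPM in the Ctrl colons and 1473 to 1942 TPM in the Y/T KO colons, without overlap. *Hspa8*, a largely constitutive chaperone, made up the greatest part of this sum, at 585 to 673 TPM and 696 to 932 TPM, whereas the stress-inducible *Hspa1a* and *Hspa1b* had log2 fold changes of -0.07 and -0.21, and their ranges overlapped. The part of these gene groups in the levels of the immediate-early genes was not tested.

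Mice that gave both tissues allowed the genes to be read within an animal. Ctrl mouse 788 had *Junb* at 17.2 TPM in colon and 34.0 TPM in bladder, whereas Y/T KO mouse 783 had 37.9 TPM in colon and 9.41 TPM in bladder, and Y/T KO mouse 780 had 38.8 and 13.7 TPM. *Ier2* was lower in the bladder of all 3 mice, at 32.1 against 50.3 TPM in mouse 788, 18.7 against 79.5 TPM in mouse 783, and 21.3 against 63.2 TPM in mouse 780. *Nr4a1* was higher in the bladder of all 3, by 2.22-fold in mouse 788, 1.61-fold in mouse 783, and 4.02-fold in mouse 780. *Fos* went with genotype in direction, higher in the bladder of Ctrl mouse 788 and lower in the bladders of both Y/T KO mice. With 1 Ctrl and 2 Y/T KO animals, these values carry no test.

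Bladder and colon were then compared within each genotype over all 12 libraries. In Ctrl, *Junb* was higher in the bladder, by a log2 fold change of 1.24 (SE 0.35, adjusted p = 0.0126), and *Ier2* was lower, by a log2 fold change of -0.73 (SE 0.25, adjusted p = 0.0308). That was 2 of 9 members, beside 50.4% of the 19773 genes tested. In Y/T KO, *Fos*, *Junb*, and *Ier2* were lower in the bladder, with log2 fold changes of -2.63 (SE 0.88, adjusted p = 0.0294), -1.62 (SE 0.35, adjusted p = 0.00257), and -2.04 (SE 0.25, adjusted p = 4.06e-05), which is 3 of 9 beside 51.3% of genes. *Egr1* was 2.87-fold higher in Ctrl bladder without passing (interval of the log2 fold change -0.07 to 3.11, adjusted p = 0.103), and it passed when mouse 784 was left out (log2 fold change 2.52, adjusted p = 0.000395). The call for *Fos* in Y/T KO was lost without colon mouse 783 or bladder mouse 782 or 783 (adjusted p = 0.0628 to 0.0874). The call for *Ier2* in Ctrl was lost with TPM as deposited (adjusted p = 0.138), with FPKM (0.0632), and when Ctrl colon mouse 788 or 787 or Ctrl bladder mouse 784 or 788 was left out (0.0749 to 0.130). *Junb* kept its call in both genotypes in every alternative fitted. The scale set across tissues matters here, since bladder values were 0.26 higher in Ctrl and 0.28 higher in Y/T KO on the log2 scale as deposited than after rescaling.

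**Figure D4:**
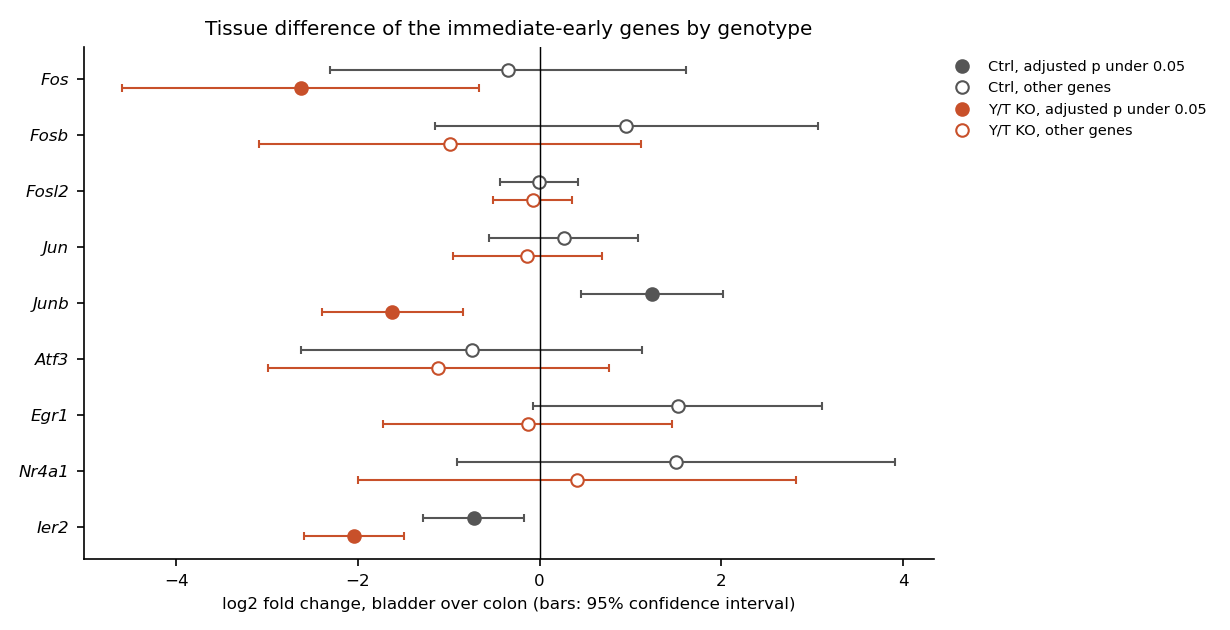
Log2 fold change of bladder over colon for 9 immediate-early genes in Ctrl and Y/T KO, with bars for the 95% confidence interval and filled points for an adjusted p under 0.05. *Junb* lies at 1.24 in Ctrl and -1.62 in Y/T KO, and *Ier2* lies below 0 in both.

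Genes whose levels followed the mean of the 9 members most closely were ranked over 14809 others, by the lower of their correlations over the 6 colon and the 6 bladder libraries. The leading 8 were *Sik1* (r = 0.968 in colon and 0.971 in bladder), *Gm5297*, *Csrnp1*, *Spry2*, *Pltp*, *Gpatch11*, *E130309D02Rik*, and *Cyr61* (0.837 and 0.970). The genes were chosen for this likeness, the libraries are few and some share a mouse, so the correlations only describe them. *Sik1*, a salt-inducible kinase, ran from 3.17 TPM in Ctrl colon mouse 786 to 9.82 TPM in Y/T KO colon mouse 783, and from 17.5 TPM in Ctrl bladder mouse 784 to 40.9 TPM in Ctrl bladder mouse 785. *Cyr61*, a secreted matricellular protein and a known YAP/TAZ target, was at 7.28, 658, and 93.1 TPM in the Ctrl bladders and at 16.4, 64.0, and 73.1 TPM in the Y/T KO bladders, the widest range of the 8. *Csrnp1* was at 9.84, 36.0, and 14.6 TPM in the Ctrl bladders and at 11.2, 13.9, and 15.0 TPM in the Y/T KO bladders. Among the leading 50 genes, 6 belonged to the lists of family relatives and co-induced genes (*Sik1*, *Csrnp1*, *Cyr61*, *Trib1*, *Btg2*, and *Dusp1*), which together made up 0.419% of the genes ranked.

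**Figure D5:**
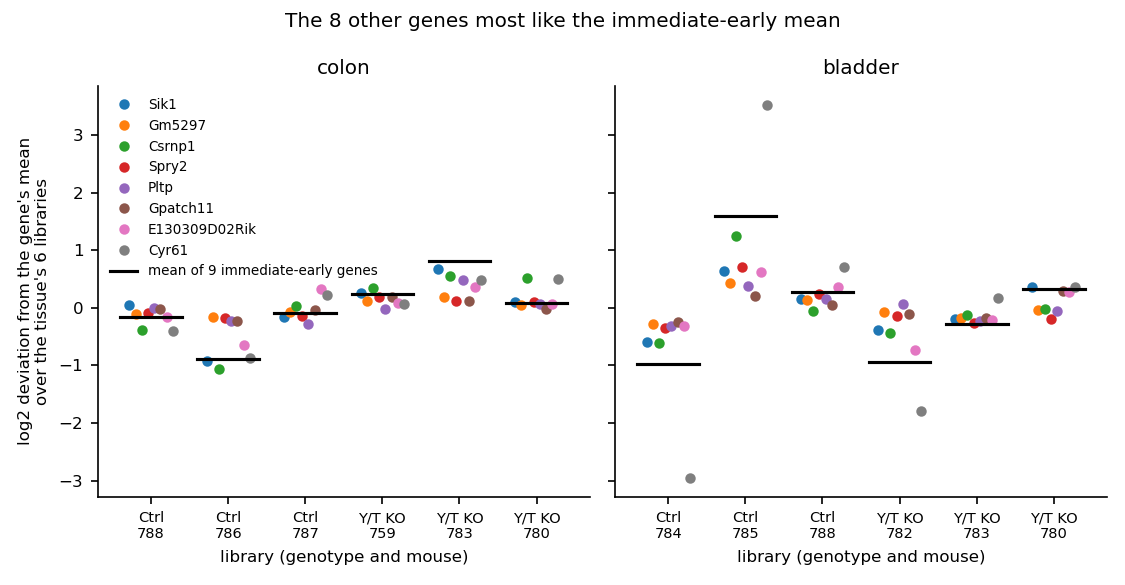
Log2 deviation of the 8 most similar genes from their own means over the 6 libraries of each tissue (deposited TPM), with a black line at the mean of the 9 immediate-early genes in each library. *Cyr61* spans the widest range, from 7.28 TPM in Ctrl bladder mouse 784 to 658 TPM in Ctrl bladder mouse 785.

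Other members of the AP-1, EGR, NR4A, and IER families, with the EGR corepressors, had 0 of 19 tested genes called in the colon and 0 of 18 in the bladder. At an unadjusted p under 0.05, *Fosl1*, *Batf3*, *Maff*, and *Nr4a2* were higher in Y/T KO colon and *Ier5l* and *Nab2* were lower in Y/T KO bladder. These were 4 of 19 beside 5.14% of all genes and 2 of 18, or close to the background, beside 8.2%. *Fosl1*, which encodes Fra-1, was at 0.197, 0.337, and 0.163 TPM in the Ctrl colons and at 1.01, 1.99, and 3.24 TPM in the Y/T KO colons (log2 fold change 2.64, SE 0.49, adjusted p = 0.143), without overlap, and its Ctrl levels were all under 0.5 TPM. *Egr3* was at 0.214 to 0.513 TPM in the Ctrl colons and 0.555 to 0.762 TPM in the Y/T KO colons (adjusted p = 0.592). *Nab2*, a corepressor of EGR proteins, was at 30.9, 47.4, and 35.0 TPM in the Ctrl bladders and at 13.4, 23.6, and 22.5 TPM in the Y/T KO bladders (log2 fold change -0.95, adjusted p = 0.217). The median log2 fold change of the list was 0.50 in the colon and -0.36 in the bladder, beside 0.01 and 0.00 over all genes. *Jund* was listed at 0.163 to 1.31 TPM over the 12 libraries, and whether this reflects its level in the tissues was not tested.

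Of 47 other genes induced by serum or stress, none was called in either tissue by limma. In the colon, 35 estimates were higher and 12 lower in Y/T KO, with 11 of the former and 2 of the latter at an unadjusted p under 0.05, and in the bladder 17 were higher and 30 lower, with 2 and 5 at that level. Beside these counts, 5.14% of all genes in the colon were higher and 8.2% of all genes in the bladder were lower by the same rule, and 4.59% in the colon were lower and 6.64% in the bladder were higher. *Dusp1*, a phosphatase that ends MAP kinase signaling, was at 24.2, 19.3, and 29.9 TPM in the Ctrl colons and at 31.2, 34.7, and 43.5 TPM in the Y/T KO colons, without overlap. *Hbegf*, a ligand of the epidermal growth factor receptor, was at 15.2 to 17.2 TPM in the Ctrl colons and 23.2 to 30.8 TPM in the Y/T KO colons (adjusted p = 0.245). Against that direction, *Rgs1*, a regulator of G-protein signaling in leukocytes, was at 12.7, 17.8, and 11.0 TPM in the Ctrl colons and at 4.75, 1.32, and 1.81 TPM in the Y/T KO colons (log2 fold change -2.50, adjusted p = 0.133). *Arc* was at 0.604 to 1.11 TPM in the Ctrl colons and 1.63 to 2.71 TPM in the Y/T KO colons, and *Socs3* reached 102 TPM in Y/T KO colon mouse 780 beside 9.12 to 17.5 TPM in the other 5. In the bladder, *Rgs2* was at 281, 66.3, and 275 TPM in the Ctrl group and at 618, 420, and 474 TPM in the Y/T KO group, and *Gadd45g* was at 204 TPM in Ctrl mouse 785 beside 21.4 to 47.6 TPM in the others.

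Among 10 secreted inflammatory products, none was called in the bladder by limma, where 1 of them, *Ccl7*, was lower at an unadjusted p under 0.05, beside 8.2% of all genes. *Il1b* was at 3.75, 27.9, and 16.8 TPM in the Ctrl bladders and at 4.32, 1.91, and 4.91 TPM in the Y/T KO bladders, *Cxcl2* was at 1.07, 16.9, and 7.55 TPM and at 2.27, 0.150, and 1.38 TPM, and *Ccl2* was at 28.6, 105, and 51.6 TPM and at 29.3, 10.7, and 31.7 TPM. Each of these chemokines and cytokines was highest in Ctrl bladder mouse 785, like the members. In the colon, *Il1b* and *Ccl7* were highest in Y/T KO mouse 780, at 39.1 and 64.5 TPM, which was not the library highest in most members.

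Genes upstream of the immediate-early genes, namely SRF, its cofactors, CREB, and the MAP kinases, had 0 of 19 calls in each tissue by limma. In the colon, none of the 19 had an unadjusted p under 0.05, and in the bladder *Srf*, *Myocd*, *Mapk7*, *Map2k1*, and *Map2k2* were lower in Y/T KO at that level, which is 5 of 19 beside 8.2% of all genes. *Srf* was at 45.6, 63.3, and 49.9 TPM in the Ctrl bladders and at 37.4, 34.4, and 33.3 TPM in the Y/T KO bladders (log2 fold change -0.58, SE 0.14, adjusted p = 0.159), without overlap. In the colon, *Srf* was at 19.0 to 22.4 TPM in the Ctrl group and 16.1 to 32.1 TPM in the Y/T KO group. *Myocd*, the smooth muscle cofactor of SRF, was at 34.8 to 44.2 TPM in the Ctrl bladders and 17.3 to 22.8 TPM in the Y/T KO bladders (adjusted p = 0.0573). *Map2k2* was at 70.8 to 83.9 TPM in the Ctrl bladders and 48.3 to 64.1 TPM in the Y/T KO bladders. Smooth muscle genes with SRF sites were lower in Y/T KO for 12 of 12 estimates in both tissues, with none called by limma. Of the 12, 9 were lower in the colon at an unadjusted p under 0.05, beside 4.59% of all genes, and 8 in the bladder, beside 8.2%. Their median log2 fold change was -0.48 in the colon and -0.64 in the bladder, beside 0.70 and -0.67 for the immediate-early genes, and the difference between these sets was not tested. *Myh11* was at 355 to 452 TPM in the Ctrl colons and 168 to 229 TPM in the Y/T KO colons (adjusted p = 0.0958), and *Des* was at 2271 to 2884 TPM in the Ctrl bladders and 1089 to 1792 TPM in the Y/T KO bladders (adjusted p = 0.103). With DESeq2, the study reported *Tpm1*, *Actg2*, *Acta2*, and *Tagln* as down-regulated in both tissues of these samples, so this direction is not independent evidence. It also named *Srf* among the transcripts repressed in both tissues, whereas the colon estimate for *Srf* here was 0.09 on the log2 scale (adjusted p = 0.919 in limma). By Western blot, the study reported a significant reduction of SRF protein in Y/T KO colon, which RNA levels do not measure.

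Clock genes, which follow the time of day, had 0 of 13 calls in each tissue by limma. At an unadjusted p under 0.05, *Dbp*, *Tef*, and *Ciart* were higher and *Arntl* and *Npas2* were lower in Y/T KO colon, beside 5.14% and 4.59% of all genes, and *Nr1d2* and *Hlf* were higher in Y/T KO bladder, beside 6.64%. *Arntl*, which encodes the clock activator BMAL1, was at 53.0, 76.5, and 58.6 TPM in the Ctrl colons and at 27.9, 42.0, and 31.4 TPM in the Y/T KO colons (log2 fold change -0.86, adjusted p = 0.241), without overlap. *Dbp* was at 5.00 to 7.11 TPM in the Ctrl colons and at 39.0 (mouse 759), 12.2 (mouse 783), and 7.48 TPM (mouse 780) in the Y/T KO colons (adjusted p = 0.492), and *Tef* was at 3.37 to 10.1 TPM and 10.3 to 20.1 TPM. *Hlf* was at 4.06 to 6.25 TPM in the Ctrl bladders and 8.72 to 15.2 TPM in the Y/T KO bladders (log2 fold change 1.23, adjusted p = 0.123). *Per1*, which counts among both the clock and the immediate-early genes, was at 6.66 to 7.44 TPM in the Ctrl colons and 9.02 to 13.1 TPM in the Y/T KO colons, and at 5.77 to 13.9 TPM in the Ctrl bladders and 19.2 to 34.7 TPM in the Y/T KO bladders. Unlike *Junb* and *Ier2*, *Per1* was higher in Y/T KO without overlap in both tissues, with adjusted p = 0.372 and 0.232. Whether the time of collection differed between these libraries was not tested. Among 10 heat shock genes, none was called in either tissue by limma, with 0 at an unadjusted p under 0.05 in the colon and *Hspb1* lower and *Hspa8* higher in Y/T KO bladder at that level, 1 of 10 each, beside 8.2% and 6.64% of all genes. *Hspb1* was at 364 to 510 TPM in the Ctrl bladders and 208 to 312 TPM in the Y/T KO bladders.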

How the data were processed

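RNA was measured in 12 libraries, 3 per genotype and tissue, and groups were taken from the sample labels, which also name the mouse. The authors prepared stranded libraries of polyadenylated RNA and, per the labels, used bcl2fastq, FastQC, HISAT2, StringTie, and DESeq2 with the GRCm38 build. Versions were not given in the sources used here. The TPM values deposited by the authors are scaled to transcript length and to a constant sum per library, the deposited FPKM values are scaled to length and to mapped fragments, and the deposited coverage is the mean number of reads per base. Read counts were not used here, so that a count test could not be run and the counting error of single values was not estimated. Coverage of the members was lowest for *Fosb*, from 1.10 reads per base. Rows with the same gene ID were summed. Coverage divided by FPKM gave the aligned bases per library.

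For rescaling, each library's TPM were divided by a size factor (median of ratios). It was computed within a tissue for the genotype comparisons and the interaction (0.960 to 1.10). For the tissue comparisons, it was computed over 12 libraries (0.872 to 1.13). A gene was kept where 3 or more libraries of a tissue reached 0.5 TPM, and for the interaction this had to hold in both tissues. For the tissue comparisons, a gene was kept where 3 or more of the 12 libraries reached it. *Egr2* did not pass. A pseudocount of 0.1 TPM was added, and log2 values were fitted with limma 3.58.1 in R 4.3.3 with trend and robust options, and p-values are two-sided and Benjamini-Hochberg adjusted over all genes tested. Fold changes are on this scale, which understates changes of low genes. The fits were tested on simulated data. Figures were drawn with matplotlib 3.10.9 in Python 3.11.15, and promoters came from RefSeq tables, which held 8 of the 10 members.

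The members and lists were chosen with earlier results of these data known. Named genes are the members in every library, *Yap1* and *Wwtr1*, and the 8 genes most like the members' mean. From each list of related genes, they were taken from the called genes and the 3 largest estimates per tissue. Not every gene that met this rule is named. A result under this rule is not reported here. *Dusp1*, *Hbegf*, *Per1*, *Jund*, *Hspa8*, *Hspa1a*, *Hspa1b*, and genes named for an unadjusted p were added after their values were seen. The same holds for *Nrbf2*, *Ado*, *Ly6g*, and *Cxcr2*. Labels do not say whether mice were littermates. Mice 788, 783, and 780 gave both tissues, which pairs those libraries. Deviations from the group means correlated at -0.02 to 0.09 across genes between tissues of the same mouse and at -0.10 to 0.06 between different mice, and a fit with the mouse as a block was an alternative. Others were pseudocounts of 0.5 and 1, other filters, TPM and FPKM as deposited, limma without trend and robust options, all libraries in one fit, and leaving out each library.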

Additional observations from a re-analysis of the deposited data

Results flagged for a closer look

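*Junb* and *Ier2* were flagged because every Y/T KO library was higher than every Ctrl library in the colon and lower in the bladder. Of the genes tested in both tissues, 116, or 0.712%, had this pattern, these members among them. For *Ier2* in the bladder, Ctrl mouse 784 (21.6 TPM) and Y/T KO mouse 780 (21.3 TPM) were nearly level. The bladder effect minus the colon effect was -2.88 on the log2 scale for *Junb* and -1.34 for *Ier2*. Tested as an interaction over all 12 libraries with limma, the difference did not pass after adjustment over 16298 genes, with adjusted p = 0.103 for *Junb* (0.0238 to 0.218 when a library was left out) and 0.221 for *Ier2* (0.123 to 0.412).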

How the results depend on the processing

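Of 810 values of the members under the alternatives, 761 kept their direction and their side of the threshold, 38 changed direction, 9 lost a call, and 2 gained one. No member was called between the genotypes in either tissue under any alternative. The 45 values fitted with the mouse as a block for the pairing kept direction and side, and with the block the interaction of *Junb* had adjusted p = 0.0941.

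The count of genes called in the colon was 24, moving to 6 with no filter on low values, 71 with all 12 libraries in one fit, and 73 with the mouse as a block in that fit, and ranging from 5 to 63 when a library was left out. In the bladder it was 55, with 11 to 51 when a library was left out, and for the interaction it was 8, with 6 to 25.

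With TPM as deposited, *Fosl2* turned to -0.015 on the log2 scale in the colon, and between tissues *Fosl2* turned to 0.25 in Ctrl and 0.20 in Y/T KO, *Jun* to 0.14 in Y/T KO, and *Egr1* to 0.14 in Y/T KO. With FPKM, *Fosl2* turned to 0.11 in Ctrl and 0.0069 in Y/T KO. All of these had adjusted p over 0.05 in both settings. Leaving out a library turned the direction of *Fosl2* (-0.12 to 0.11) and *Nr4a1* (-0.029 to 1.07) in the colon. In the bladder it turned *Fosb* (-1.61 to 0.17), *Fosl2* (-0.30 to 0.10), *Jun* (-0.22 to 0.49), *Egr1* (-1.67 to 0.052), *Atf3* (-0.52 to 1.17), and *Nr4a1* (-1.48 to 0.65). The interaction turned for *Fosl2* (-0.32 to 0.080), *Jun* (-0.70 to 0.011), and *Atf3* (-1.10 to 0.58). Between tissues, *Fos* (-1.25 to 0.77), *Fosl2* (-0.17 to 0.23), and *Jun* (-0.086 to 0.55) turned in Ctrl, and *Jun* (-0.41 to 0.29), *Egr1* (-0.39 to 0.14), and *Nr4a1* (-0.21 to 1.23) in Y/T KO. With 1 library left out, its group rests on 2. The cause of these changes was not tested, and depth limits *Fosb* most.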
